A study of Mus musculus with 6 samples.

Results

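Fibroblast identity genes were followed in 6 tumours formed by NA13 cells, a murine bladder cancer line that the series describes as rich in DDR2 and labels as xenografts. The list was written down by symbol: Pdgfra, Pdgfrb and Gsn as general stromal genes, Pi16, Dpt, Clec3b and Cd34 as resident-type genes, and Fap, Pdpn and Thy1 as activated genes. All 10 listed symbols were found by Entrez number among the 15295 rows of the count table, and all 10 passed the filter on low counts, which left 14498 genes. The control group was 3 tumours whose cells carried a scrambled shRNA, and the other group was 3 tumours labelled as carrying an shRNA against Ddr2 (labelled shDdr2 1 to 3). All 6 received IgG, and the strain is given as C57BL/6. The labels state neither the site of the graft, nor the number of shRNA constructs or clones, nor whether each library was 1 animal. The spread behind each p-value is thus that of these samples and may be technical in part.

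Fibroblasts build and remodel the collagenous matrix of connective tissue, and tumours recruit or convert them into cancer-associated fibroblasts. Cells marked by Pi16, Dpt, Clec3b and Cd34 are described in many mouse tissues as resting, adventitial fibroblasts from which other fibroblasts can arise. Fap, Pdpn and Thy1 are used as markers of activated fibroblasts in wounds and tumours. Most of these genes are not exclusive to fibroblasts. Pdgfrb is also the growth factor receptor of pericytes, Cd34 is found on endothelium, blood progenitors, mast cells and hair follicle stem cells, Pdpn on lymphatic endothelium and basal keratinocytes, and Thy1 on mouse T cells. A whole-tumour library cannot tell fewer cells of a type from less RNA per cell, nor tumour cells from host cells.

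The promoter windows of 2 pairs of genes are shown, since the genes of each pair ordered the 6 libraries identically: Pi16 with Dpt, and Cd34 with Pdpn. They come from RefSeq on GRCm38.p6, which matched 6 of the 10 genes (Pdgfra, Gsn, Pi16, Dpt, Cd34 and Pdpn). Each runs 5′ to 3′ on the gene's strand, from 250 bases before the start annotated in RefSeq to 50 bases after it. RefSeq starts can differ from the GENCODE coordinates given below with each gene. The Pi16 window lies wholly inside the GENCODE span of Pi16 (29317680 to 29330593), so it is not upstream of that span. The windows are chr17:29318632-29318931 (plus strand) for Pi16, chr1:164796413-164796712 (plus) for Dpt, chr1:194938571-194938870 (plus) for Cd34 and chr4:143299515-143299814 (minus) for Pdpn. Capitals mark matches, searched on both strands. The AP-1 motif was spelled TGANTCA. The GC box was spelled GGGCGG. The TATA box was spelled TATAAA. The TEAD motif was spelled GGAATG. The palindromic SMAD motif was spelled GTCTAGAC. No matches overlapped in these windows.
Pi16: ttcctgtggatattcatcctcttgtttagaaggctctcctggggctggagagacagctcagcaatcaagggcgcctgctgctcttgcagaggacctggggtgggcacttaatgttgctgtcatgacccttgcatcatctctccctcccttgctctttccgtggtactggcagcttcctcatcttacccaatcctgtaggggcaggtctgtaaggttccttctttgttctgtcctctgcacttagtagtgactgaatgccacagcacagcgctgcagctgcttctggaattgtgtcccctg
Dpt: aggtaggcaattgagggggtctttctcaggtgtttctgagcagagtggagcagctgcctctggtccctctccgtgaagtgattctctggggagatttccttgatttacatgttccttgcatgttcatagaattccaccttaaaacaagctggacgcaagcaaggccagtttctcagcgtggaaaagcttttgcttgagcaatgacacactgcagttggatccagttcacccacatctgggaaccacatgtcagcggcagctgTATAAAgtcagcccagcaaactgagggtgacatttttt
Cd34: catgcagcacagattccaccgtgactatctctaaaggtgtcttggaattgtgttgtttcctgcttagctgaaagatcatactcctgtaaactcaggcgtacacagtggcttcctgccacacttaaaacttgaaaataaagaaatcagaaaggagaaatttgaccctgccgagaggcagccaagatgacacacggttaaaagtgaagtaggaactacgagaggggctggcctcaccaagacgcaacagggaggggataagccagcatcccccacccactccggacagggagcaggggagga
Pdpn: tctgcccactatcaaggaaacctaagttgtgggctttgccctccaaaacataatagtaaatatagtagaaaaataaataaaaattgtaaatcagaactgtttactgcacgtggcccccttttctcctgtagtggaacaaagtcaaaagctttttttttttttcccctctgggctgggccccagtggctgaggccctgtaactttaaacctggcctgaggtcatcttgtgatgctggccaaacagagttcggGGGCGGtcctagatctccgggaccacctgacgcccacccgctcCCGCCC
The Dpt window held 1 TATA box, which 13.6% of all 32851 windows held on either strand, and its first letter lay 12 bases after the annotated start. The Pdpn window held 2 GC boxes, a motif of 35.7% of windows. No searched motif was in the Pi16 or the Cd34 window. AP-1, TEAD and SMAD motifs were in 7.81%, 14.7% and 0.213% of all windows and in none of these 4. The windows had a G and C content of 53.3% (Pi16), 48.7% (Dpt), 50% (Cd34) and 48.7% (Pdpn), against a median of 52.7%. A match is a description of letters only.

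The libraries held 15560571 to 19522985 counts each. The first principal component of all tested genes held 50.1% of the variance and set labelled shDdr2 1 apart (-85.2, the other 5 between -16.3 and 45.7), while control 1 stood alone on the next (22.2% of the variance, score -55.7). Levels are given as CPM, the counts per 1000000 counts of a library total scaled by TMM. The targeted gene Ddr2, a collagen receptor of mesenchymal cells, was at 6.42, 16.7 and 20.5 CPM in control 1 to 3 and at 4.84, 19.0 and 28.6 CPM in labelled shDdr2 1 to 3. It was thus not lower in the group labelled shDdr2 (log2 fold change 0.27, 95% interval -1.27 to 1.81), and directions are given between libraries as labelled. The Ddr2 difference was -0.08 without control 1 and -0.28 without labelled shDdr2 3.

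None of the fibroblast identity genes differed between the groups beyond the spread of the libraries. The quasi-likelihood test of edgeR called 0 of the 10, with an adjusted p of 1.00 for each, as it called 0% of all tested genes. At an unadjusted p under 0.05 it had 0 of the 10, against 1.44% of all genes, and the lowest unadjusted p of the 10 was 0.146 (Pi16). DESeq2 and limma on voom weights also called 0 of the 10. The groups overlapped in all 10 genes, so 0 were without overlap, where 4.32% of all genes were. The fitted log2 fold change was above 0 in 7 genes and below 0 in 3, with a median of 0.24, against 0.04 for all tested genes, of which 57.1% were above 0. Exact permutation tests of the log2 CPM, two-sided over 20 assignments and so limited to p = 0.1 or more, gave values from 0.5 to 0.9. The spread was wider in the group labelled shDdr2 for all 10 genes, on the CPM scale. The share of all tested genes with a wider spread in that group was not computed. Labelled shDdr2 1 was the lowest library for 34.6% of all tested genes and the highest for 32.6%. The count is thus not read as a trait of these 10 genes.

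**Figure D1:**
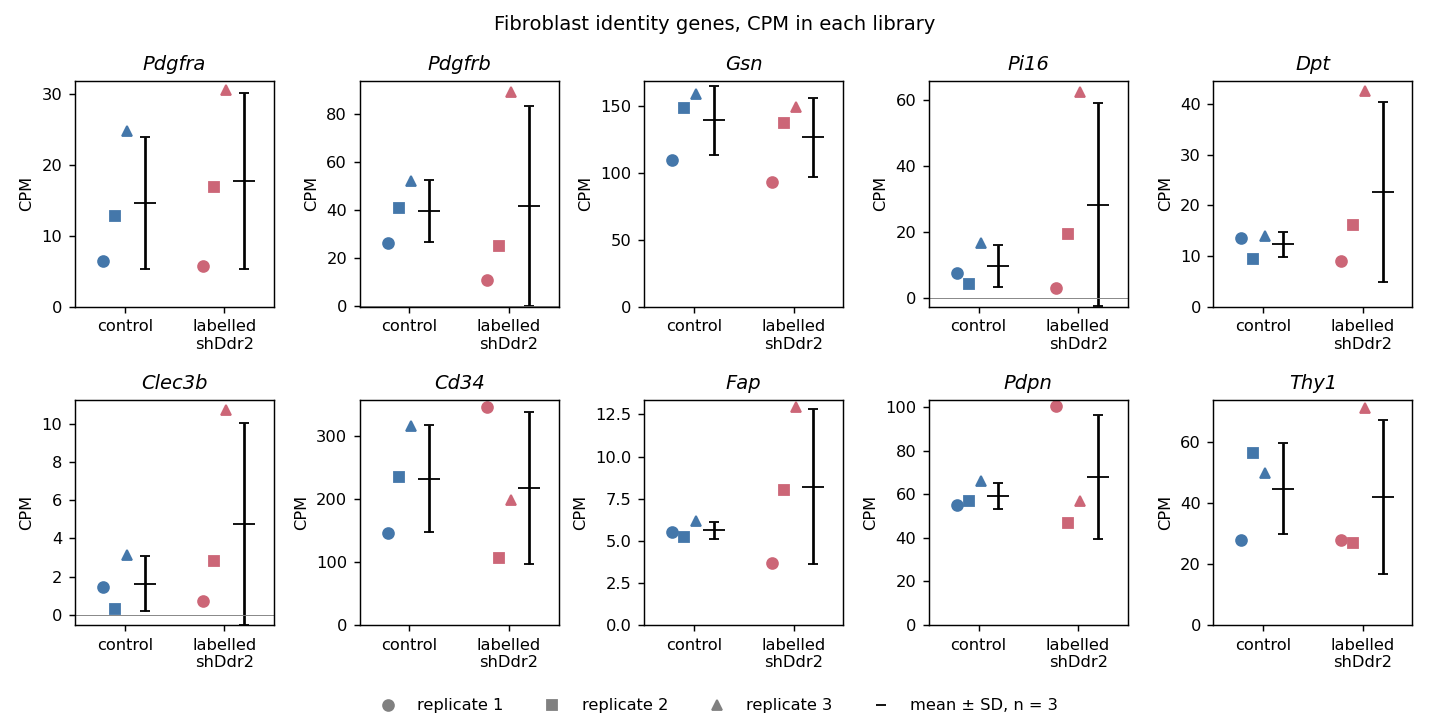
CPM of the 10 genes in each library (y axis, from 0 or below where the SD bar passes 0), with control libraries in blue and libraries labelled shDdr2 in red; the symbols give the replicate number and the black bars the mean ± SD of 3 libraries. The highest point is labelled shDdr2 3 in 7 panels, and the groups overlap in every panel.

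Pdgfra encodes the receptor for PDGF-A, PDGF-C and related dimers and is the usual marker of tissue fibroblasts (Entrez 18595, chromosome 5, 75152292 to 75198215, plus strand, GRCm38). It stood at 6.42, 12.7 and 24.8 CPM in control 1 to 3, and at 5.78, 16.9 and 30.6 CPM in labelled shDdr2 1 to 3. Each group thus held 1 low, 1 middle and 1 high library, and the means of 14.6 ± 9.32 and 17.8 ± 12.4 CPM (SD, n = 3) lay well within either spread. The log2 fold change was 0.28 (SE 0.66), but -0.07 without control 1 and -0.36 without labelled shDdr2 3, and 0.89 without control 3. Pdgfra placed the 6 libraries in the same order as Ddr2 did, an order shared by 218 of 12317 other genes compared (1.77%). Exons of Pdgfra overlap an antisense gene, and the strand setting of the counting is not given in the sources used here.

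Pdgfrb, the receptor for PDGF-B and PDGF-D on fibroblasts and pericytes (Entrez 18596, chromosome 18, 61045150 to 61085061, plus strand), was at 26.2, 40.6 and 51.8 CPM in the controls. The libraries labelled shDdr2 were at 10.5, 24.9 and 89.2 CPM, so that this group held both the lowest and the highest value. Its means were 39.5 ± 12.8 and 41.5 ± 41.9 CPM (SD, n = 3), and its log2 fold change was 0.07 (SE 0.70). That direction turned with the replicate block (-0.41), without control 1 (-0.15) and without labelled shDdr2 3 (-1.15). Of 12 pericyte markers, 7 were also lowest in labelled shDdr2 1 and 6 highest in labelled shDdr2 3. Summed, they reached 390 to 532 CPM in controls and 500 to 687 CPM in libraries labelled shDdr2. Without Des, which muscle also makes and which was left out after its values were seen, the other 11 summed to 448 ± 56.6 CPM and 427 ± 92.8 CPM (SD, n = 3), so the direction of the sum turned. Their part in the Pdgfrb values was not tested.

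Gsn encodes gelsolin, an actin-severing protein abundant in fibroblasts and also made by muscle and other cells (Entrez 227753, chromosome 2, 35256380 to 35307892, plus strand). It varied least, at 110, 149 and 159 CPM in the controls and at 93.4, 138 and 149 CPM in labelled shDdr2 1 to 3, a span of 1.71-fold. The lowest library of each group was again number 1. Group means were 139 ± 25.9 and 127 ± 29.5 CPM (SD, n = 3). Its log2 fold change was -0.14 (SE 0.25, 95% interval -0.73 to 0.46), and 0.04 without labelled shDdr2 1.

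Among the resident-type genes, Pi16, Dpt and Clec3b were far higher in labelled shDdr2 3 than in any other tumour, and Cd34 was not. Pi16, a secreted peptidase inhibitor family member that marks adventitial fibroblasts (Entrez 74116, chromosome 17, 29317680 to 29330593, plus strand), was at 7.71, 4.42 and 16.7 CPM in control 1 to 3. In labelled shDdr2 1 to 3 it was at 3.03, 19.4 and 62.6 CPM, from 42, 399 and 1090 counts. The group labelled shDdr2 therefore held the lowest library and the 2 highest, a span of 20.6-fold across the 6. Group means were 9.62 ± 6.37 and 28.3 ± 30.8 CPM (SD, n = 3). The log2 fold change was 1.56 (SE 0.96, 95% interval -0.69 to 3.81), which was 0.23 without labelled shDdr2 3, 1.00 on voom weights and 1.04 with the replicate block. An antisense gene overlaps its exons.

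Dpt encodes dermatopontin, a matrix protein that binds decorin and collagen fibrils (Entrez 56429, chromosome 1, 164796644 to 164824266, plus strand). Its levels were 13.5, 9.44 and 14.0 CPM in controls and 8.95, 16.1 and 42.7 CPM in labelled shDdr2 1 to 3. The controls lay close together, and only labelled shDdr2 3 stood well outside their range. The means were 12.3 ± 2.50 and 22.6 ± 17.8 CPM (SD, n = 3). Its log2 fold change of 0.87 (SE 0.55) was 0.03 without that library.

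Clec3b encodes tetranectin, a plasminogen-binding lectin-like protein (Entrez 21922, chromosome 9, 123150946 to 123157432, plus strand). It was at 1.46, 0.299 and 3.14 CPM in control 1 to 3 and at 0.722, 2.83 and 10.7 CPM in labelled shDdr2 1 to 3. Control 2 rested on 5 counts, with an exact Poisson 95% interval of 0.0970 to 0.697 CPM that covers counting error only, and labelled shDdr2 3 on 187. The 35.9-fold span from control 2 to labelled shDdr2 3 was the widest of the 10 genes. Means were 1.63 ± 1.43 and 4.76 ± 5.28 CPM (SD, n = 3). Its log2 fold change of 1.55 (SE 1.05) was 0.15 without labelled shDdr2 3 and 2.42 without control 3.

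Cd34, a sialomucin of the cell surface, did not share that pattern (Entrez 12490, chromosome 1, 194938819 to 194961279, plus strand). It was at 146, 236 and 316 CPM in the controls, and at 346, 107 and 199 CPM in labelled shDdr2 1 to 3. Here labelled shDdr2 1, lowest for Pi16 and Dpt, was the highest of the 6, and labelled shDdr2 2 the lowest. With means of 232 ± 85.1 and 217 ± 120 CPM (SD, n = 3), the groups were nearly level. The log2 fold change was -0.10 (SE 0.46), and it turned to 0.19 without control 3 and to 0.23 without labelled shDdr2 2, while it was -0.61 without labelled shDdr2 1. Its exons overlap an antisense gene.

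Markers of other cells that carry Cd34 are given beside it. The 12 endothelial markers summed to 146 CPM in labelled shDdr2 1, against 199 to 379 CPM in controls and 301 and 546 CPM in labelled shDdr2 2 and 3, and 9 of the 12 were lowest there. The 7 measured mast and progenitor cell markers summed to 24.1 CPM there, against 28.3 to 64.9 CPM in controls and 32.2 to 48.5 CPM in the other libraries labelled shDdr2, and 2 of the 7 were lowest there. Among 14 epithelial and keratinocyte markers, 3 were highest in labelled shDdr2 1 (Krt1, Krt10 and Lor, of cornifying epidermis) and 4 lowest, and their sum of 16692 CPM lay within the control range of 14611 to 18353 CPM. Krt10 was at 1401 CPM there and at 177 to 378 CPM elsewhere. The part of endothelial, mast, epithelial or tumour cells in the Cd34 values was not tested.

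The activated genes spanned 2.15-fold to 3.51-fold between libraries, against 3.23-fold to 35.9-fold for the resident-type genes. Fap, a membrane-bound serine protease that cleaves denatured collagen (Entrez 14089, chromosome 2, 62500943 to 62574075, minus strand), was at 5.50, 5.20 and 6.16 CPM in control 1 to 3. In labelled shDdr2 1 to 3 it was at 3.68, 8.04 and 12.9 CPM. Controls again clustered, with 1 library labelled shDdr2 below them and the other 2 above. Its means were 5.62 ± 0.492 and 8.21 ± 4.62 CPM (SD, n = 3). For Fap the log2 fold change was 0.55 (SE 0.46), but 0.07 without labelled shDdr2 3 and 0.90 without labelled shDdr2 1. Fap, Pi16 and Dpt placed the libraries in an identical order, which 184 of 12317 other genes shared with each of them (1.49%).

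Pdpn encodes podoplanin, a mucin-like membrane protein that binds CLEC-2 on platelets (Entrez 14726, chromosome 4, 143267431 to 143299564, minus strand). It was at 55.0, 57.0 and 66.1 CPM in controls, and at 100, 46.8 and 56.8 CPM in labelled shDdr2 1 to 3. As with Cd34, labelled shDdr2 1 was the highest library and labelled shDdr2 2 the lowest. Cd34 and Pdpn placed all 6 libraries in 1 order, which only 5 of 12317 other genes (0.0406%) shared with either, the partner included. Podoplanin means were 59.4 ± 5.95 and 68.0 ± 28.5 CPM (SD, n = 3). The log2 fold change of Pdpn was 0.20 (SE 0.31), and -0.20 without labelled shDdr2 1. The 2 measured lymphatic markers, Lyve1 and Flt4, summed to 2.17 CPM in that library, below the 7.23 to 17.2 CPM of controls and the 11.4 and 19.6 CPM of labelled shDdr2 2 and 3. Of all genes compared, the closest to Pdpn over the 6 libraries was Tmprss11a, a serine protease of epithelia, at 169 CPM in labelled shDdr2 1 and 10.5 to 27.8 CPM elsewhere (r = 0.988). The part of lymphatic, epithelial or tumour cells in the Pdpn values was not tested.

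Thy1, a small GPI-anchored surface glycoprotein (Entrez 21838, chromosome 9, 44043384 to 44048579, plus strand), was at 27.8, 56.3 and 49.8 CPM in control 1 to 3 and at 28.0, 27.0 and 71.2 CPM in labelled shDdr2 1 to 3. It followed neither pattern fully: labelled shDdr2 3 was highest, but labelled shDdr2 2 was lowest. Thy1 means were 44.7 ± 14.9 and 42.1 ± 25.3 CPM (SD, n = 3). The log2 fold change of -0.09 (SE 0.45) turned to 0.11 without control 2, 0.00068 without control 3, 0.13 without labelled shDdr2 1 and 0.15 without labelled shDdr2 2, and was -0.70 without labelled shDdr2 3. The 9 measured T cell markers summed to 10.7, 52.2 and 27.8 CPM in control 1 to 3 and to 20.3, 44.0 and 18.9 CPM in labelled shDdr2 1 to 3. Their part in the Thy1 values was not tested.

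**Figure D2:**
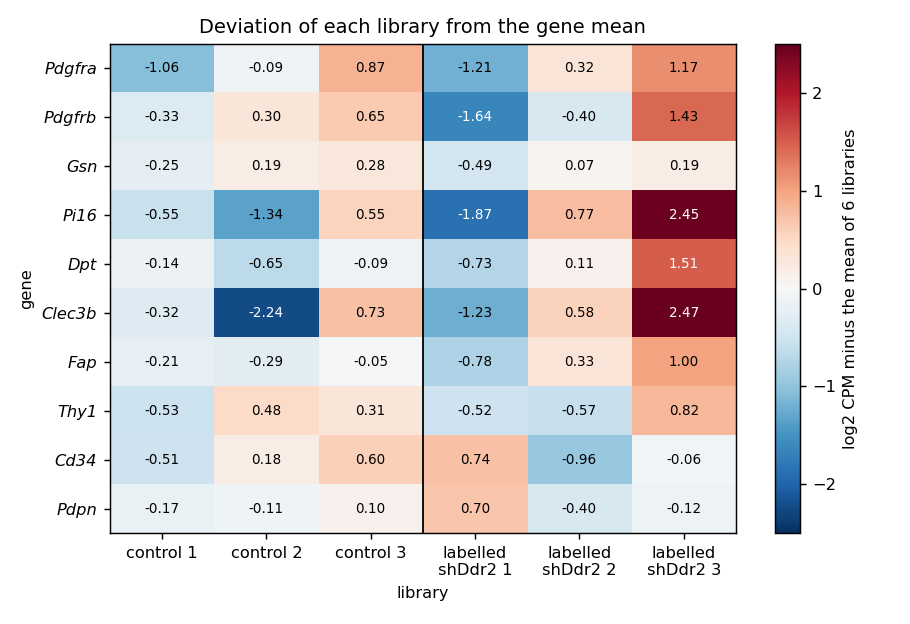
Deviation of each library's log2 CPM from the mean of the 6 libraries (colour and printed value) for the 10 genes (rows) and the libraries (columns). Labelled shDdr2 1 is lowest for 6 genes and labelled shDdr2 3 highest for 7. Cd34 (0.74) and Pdpn (0.70) are highest in labelled shDdr2 1, as were 32.6% of all tested genes.

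Labelled shDdr2 1 and labelled shDdr2 3 held most of the extremes. Labelled shDdr2 1 was the lowest library for 6 of the 10 (Pdgfra, Pdgfrb, Gsn, Pi16, Dpt and Fap), where it was lowest for 34.6% of all tested genes. It was the highest library for 2 of the 10 (Cd34 and Pdpn), against 32.6% of all tested genes. Labelled shDdr2 3 was the highest for 7 of the 10, against 20.3% of all genes, the exceptions being Gsn, Cd34 and Pdpn. This was not particular to fibroblast genes. The same library was highest for 11 of 12 endothelial and 6 of 10 macrophage markers. It was highest for 0 of 9 T cell, 0 of 14 epithelial and 0 of 10 skeletal muscle markers. Between libraries of the same number, 5 genes (Pdgfra, Pi16, Dpt, Clec3b and Fap) were lower in labelled shDdr2 than in control for number 1 and higher for numbers 2 and 3. For Pi16 the differences were -1.31, 2.11 and 1.90 on the log2 CPM scale, and for Clec3b -0.91, 2.82 and 1.74. Cd34 (1.25, -1.14 and -0.66) and Pdpn (0.87, -0.28 and -0.22) had the opposite signs, and Gsn was lower for all 3 numbers (-0.24, -0.11 and -0.09). No test was made of these patterns over the genes.

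**Figure D3:**
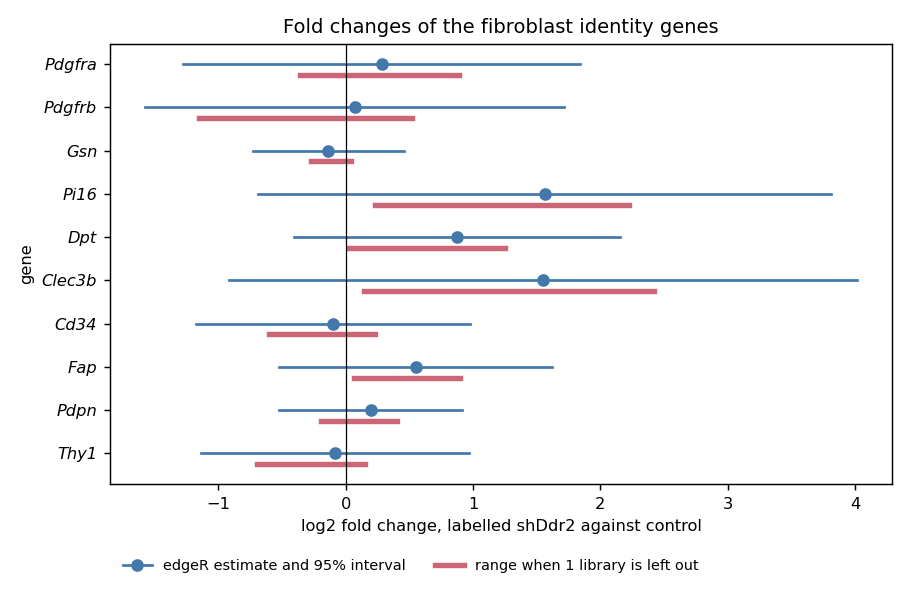
Fitted log2 fold change of labelled shDdr2 against control for each gene (x axis, 0 marked), with the edgeR 95% interval in blue and the range over fits that leave out 1 library in red. Every blue interval includes 0, and the red range of Dpt reaches down to 0.03.

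Resident-type and activated genes were then set against each other in each library, as the mean log2 CPM of the 4 and of the 3 genes. Transcript length shifts such a difference by the same amount in every library, so only its change between libraries is read. The resident-type mean was 3.64, 3.01 and 4.48 in control 1 to 3 and 3.25, 4.15 and 5.62 in labelled shDdr2 1 to 3, highest in labelled shDdr2 3 and lowest in control 2. The activated mean moved less, at 4.36, 4.69 and 4.78 and at 4.46, 4.45 and 5.23. Part of this was Pdpn running against Fap. Without Pdpn, left out after the values were seen, the activated mean ran from 3.37 (labelled shDdr2 1) to 4.93 (labelled shDdr2 3). Resident minus activated was -0.72, -1.67 and -0.31 in controls and -1.21, -0.30 and 0.39 in labelled shDdr2 1 to 3. By these 4 and 3 genes, the difference was thus highest in labelled shDdr2 3 and lowest in control 2. The wider lists described below did not share this order. There, labelled shDdr2 3 deviated from the gene means by 0.63 (other resident-type genes) and 0.99 (other activated genes) in log2 CPM. Control 2 deviated by 0.11 and 0.02. The group means were -0.90 ± 0.70 and -0.37 ± 0.80 (SD, n = 3), a difference of 0.53 that is smaller than either SD. It was 0.14 without control 2, 0.15 without labelled shDdr2 3, 0.82 without control 3 and 0.95 without labelled shDdr2 1. With the median over the genes of each set in place of their mean in each library, it was 1.03. Without Cd34, left out after its values were seen to go against those of the other 3, it was 0.80, a rise that this choice fixes. Without Pdpn, the difference was 0.53 with SDs of 0.75 (controls) and 0.40 (labelled shDdr2), so it then exceeded the smaller SD. Without both genes it was 0.81, with SDs of 0.96 and 0.94.

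**Figure D4:**
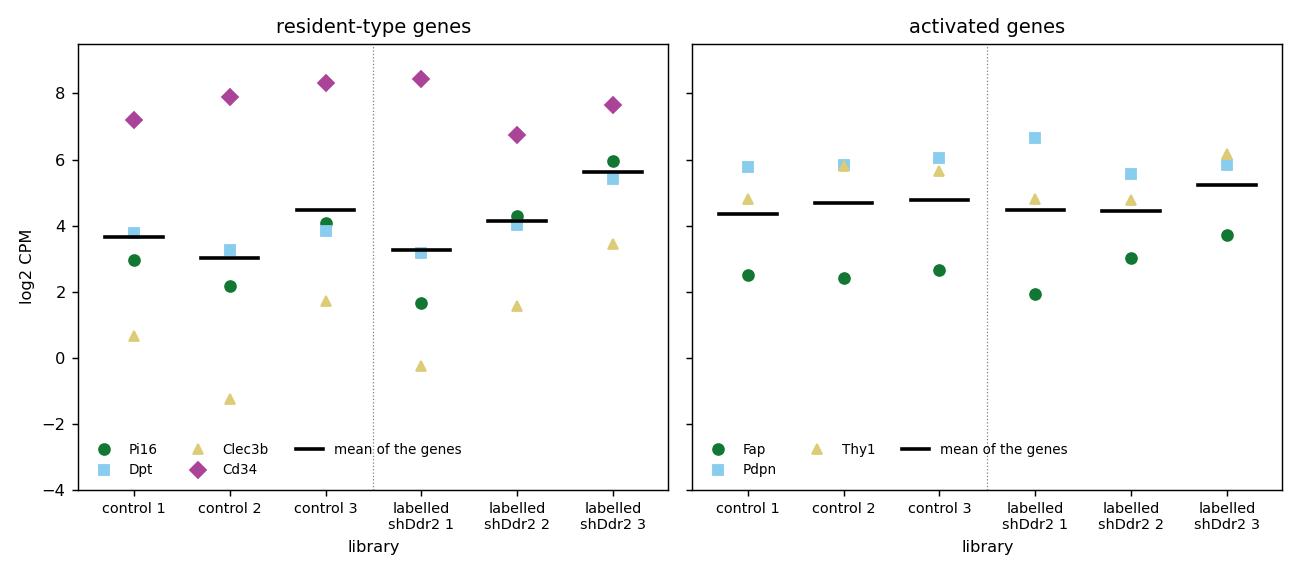
Log2 CPM of the resident-type genes (left) and the activated genes (right) in each library, with the mean of the genes as a black bar. The resident-type mean spans 3.01 to 5.62 and the activated mean 4.36 to 5.23, and Cd34 lies above the other resident-type genes in every library.

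Levels were compared between genes per kb of the longest annotated transcript (GENCODE M21), as means over the 6 libraries. Cd34 was the most abundant at 73.4 CPM per kb (range 34.9 to 113), followed by Gsn at 50.2 (35.2 to 60.1), Pdpn at 35.1 (25.8 to 55.3) and Thy1 at 25.0 (15.6 to 41.1). Then came Dpt at 10.1, Pdgfrb at 7.48, Pi16 at 4.75, Clec3b at 3.22, Fap at 2.41 and Pdgfra at 2.37 CPM per kb. The ranges of all neighbours in this order overlapped. Thy1 exceeded Dpt, and Pi16 exceeded Clec3b, in 6 of 6 libraries, whereas Fap exceeded Pdgfra in 4 and Clec3b exceeded Fap in 3. With the union of all exons as the length, Gsn and Pdpn came before Cd34. Clec3b (3.22 CPM per kb) then came before Pi16 (2.98), so their order depended on the length used. The receptor Pdgfra, the usual fibroblast marker, was thus the scarcest of the 10 by the longest transcript and above Fap alone by the union.

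**Figure D5:**
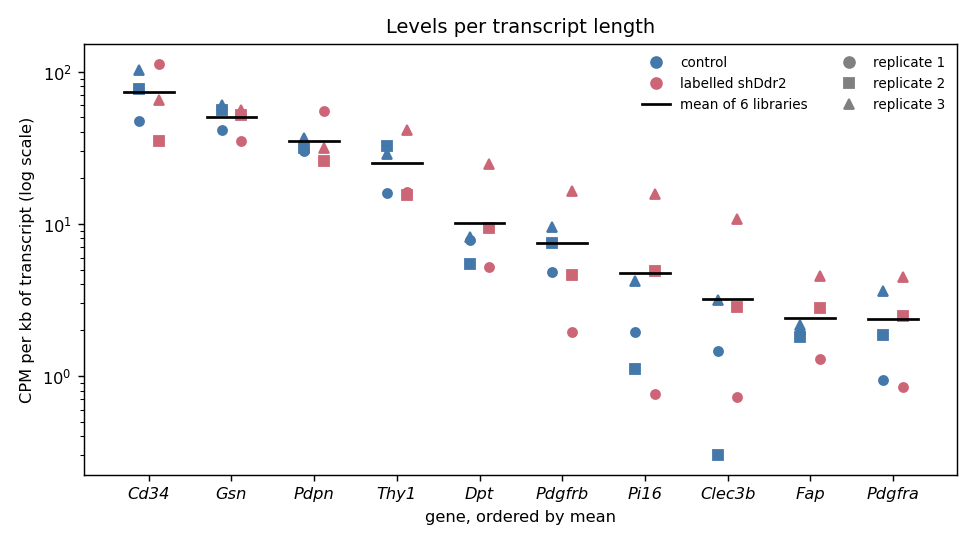
CPM per kb of the longest transcript (log scale) for each gene, ordered by its mean over the 6 libraries (black bar), with controls in blue and libraries labelled shDdr2 in red. Means fall from 73.4 for Cd34 to 2.37 for Pdgfra, and the points of neighbouring genes overlap.

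Other resident-type fibroblast genes gave a mixed picture. Of 24 listed, 21 were tested and 0 passed the edgeR test, with 17 above 0 and a median log2 fold change of 0.13. Labelled shDdr2 1 was lowest for 10 of the 21 and highest for 5, and labelled shDdr2 3 was highest for 12. In 2 of them, Cd55 and Smpd3, the groups did not overlap, both higher in labelled shDdr2, against 2.21% of all tested genes. Smpd3 rested on 11 to 21 counts per library. Its highest control was at 1.016 CPM and its lowest library labelled shDdr2 at 1.023 CPM, so its groups barely separated. The 3 with the smallest p were Cd55, an inhibitor of complement, Dpp4, a surface dipeptidase of adventitial fibroblasts, and Scara5, a ferritin receptor. Cd55 was at 67.3, 66.9 and 53.8 CPM in controls and at 174, 97.5 and 73.2 CPM in labelled shDdr2 1 to 3, without overlap (log2 fold change 0.87, SE 0.33; 0.45 without labelled shDdr2 1). Dpp4 was at 1.16 ± 0.445 and 3.48 ± 2.65 CPM and Scara5 at 4.49 ± 2.09 and 8.04 ± 1.93 CPM (SD, n = 3), with log2 fold changes of 1.60 (SE 0.71) and 0.84 (SE 0.43). Dpp4 resembled Pi16 in that labelled shDdr2 3 was highest, and its value was 0.93 without that library.

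Most other activated fibroblast genes were highest in labelled shDdr2 3. All 24 listed were tested, 0 passed, 17 were above 0 and the median log2 fold change was 0.26. Labelled shDdr2 3 was highest for 19 of the 24 and labelled shDdr2 1 lowest for 15. The gene of the main fibrillar collagen chain, Col1a1, chosen as an example after its values were seen, was at 721, 1429 and 1721 CPM in controls and at 235, 1132 and 3583 CPM in labelled shDdr2 1 to 3. By smallest p the list gave Cthrc1, a secreted protein of activated fibroblasts, at 27.6 ± 4.97 and 41.9 ± 16.0 CPM (log2 fold change 0.61, SE 0.31; 0.27 without labelled shDdr2 3). It also gave Inhba, the activin A subunit, at 71.9 ± 9.21 and 45.6 ± 21.8 CPM (-0.66, SE 0.34; -1.12 without labelled shDdr2 3). Mmp13, a collagenase, followed at 173 ± 96.1 and 109 ± 64.1 CPM (-0.67, SE 0.60; -0.17 without control 3 and -0.25 without labelled shDdr2 2), all means ± SD of 3 libraries.

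Inflammatory fibroblast genes had 14 members tested, of which 0 passed, 6 were above 0 and the median was -0.10. In 2 of them the groups did not overlap, Cxcl5 lower and Hgf higher in labelled shDdr2, against 4.32% of all tested genes. Hgf was at 3.93 ± 0.767 and 6.25 ± 0.328 CPM (SD, n = 3), with a log2 fold change of 0.67 (SE 0.31). The 3 with the smallest p, Cxcl1, Cxcl5 and Lif, were all lower. Cxcl1 and Cxcl5, chemokines that attract neutrophils, had means of 58.6 ± 28.1 and 25.8 ± 10.2 CPM (Cxcl1) and of 58.5 ± 42.5 and 14.3 ± 12.8 CPM (Cxcl5) in the 2 groups (SD, n = 3). Their log2 fold changes were -1.18 (SE 0.43) and -2.03 (SE 0.75), with -0.73 and -1.24 without control 1. Lif, a cytokine of the interleukin 6 family, was at 36.7 ± 9.77 and 21.6 ± 6.01 CPM, and its log2 fold change was -0.76 (SE 0.30). Other cells of the tumour also make Cxcl1, Cxcl5 and Lif. Fibroblast transcription factors had 16 members tested, 0 past the test, 12 above 0 and a median of 0.14. Their leading members by p were Twist1 (log2 fold change 0.52, SE 0.42; 0.02 without labelled shDdr2 3), Twist2 (0.36, SE 0.31; -0.04 without labelled shDdr2 1) and Meox1 (0.33, SE 0.30). Twist2 was at 39.8, 36.4 and 40.1 CPM in controls and at 74.0, 41.2 and 34.2 CPM in labelled shDdr2 1 to 3, highest in the same library as Cd34 and Pdpn.

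The ligands of the PDGF receptors were nearly level between the groups. Pdgfa was at 68.7 ± 18.4 and 59.3 ± 8.85 CPM, Pdgfb at 20.0 ± 4.05 and 20.7 ± 15.2 CPM, Pdgfc at 7.81 ± 1.49 and 7.51 ± 2.55 CPM and Pdgfd at 2.98 ± 1.01 and 2.81 ± 1.55 CPM (SD, n = 3). Of 17 ligand and signalling genes tested, 0 passed, 4 were above 0 and the median was -0.06, while 14 were lowest in labelled shDdr2 1. Smallest p fell on Ptpn11, the phosphatase SHP2, with a log2 fold change of -0.29 (SE 0.21), Pdgfa with -0.21 (SE 0.25; -0.0014 without control 2) and Pik3ca, a catalytic PI3K subunit, with -0.12 (SE 0.22; 0.04 without labelled shDdr2 1).

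By likeness to Pdgfra over the 6 libraries (Pearson's r of log2 CPM, a description without a test), the leading genes among 12308 were Chst2 (r = 0.998), Nol6 (0.994), Ipo4 (0.992), Ttc7b and Prune2 (both 0.991). As many as 555 genes (4.51%) had r above 0.9 with Pdgfra. The mean of the resident-type genes was most closely followed by Adcy2 (0.991), Tram2 (0.984), Lipo3 (0.983), Adgra3 (0.982) and Camk1d (0.980), with 99 genes (0.804%) above 0.9. The mean of the activated genes was most closely followed by Myl9 (0.994), a smooth muscle type myosin light chain, then Fam43a (0.992), Cd302 (0.985), Shc2 (0.982) and Dact3 (0.977), with 114 genes (0.926%) above 0.9. The same was computed for Cd34 and Pdpn after their values were seen. Closest to Cd34 were Ppp3ca (0.971), Ube2e2 (0.969), Oxsr1 and Crabp1 (both 0.966) and Naa35 (0.957), with 32 genes (0.26%) above 0.9. After Tmprss11a, those closest to Pdpn were Eif2b3 (0.985), Pus7 (0.984), Apoc1 and Mir196b (both 0.981), with 219 genes (1.78%) above 0.9. All points share library depth and tumour makeup, and 6 libraries allow many close matches.

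Of the markers of other tissues, those of skeletal muscle differed most in level between the groups. All 10 skeletal muscle markers had higher values in the group labelled shDdr2, 9 without overlap, against 2.21% of all tested genes. The edgeR test called 0 of these 10. Their sum was 8.95 to 107 CPM in controls and 403 to 2993 CPM in libraries labelled shDdr2. Tnni2, fast skeletal troponin I, was at 7.18 ± 1.87 and 84.8 ± 61.7 CPM, and Des, an intermediate filament protein of muscle that was listed with the pericytes, at 19.7 ± 17.5 and 171 ± 143 CPM (SD, n = 3). The 3 measured adipocyte markers (Fabp4, Cfd and Car3) were also above 0, with a median log2 fold change of 1.37. They summed to 20.4 to 37.2 CPM in controls and 43.1 to 52.6 CPM in libraries labelled shDdr2. Only the sum separated the groups, as 0 of the 3 did so singly. Of the 14 epithelial markers, 4 (Epcam, Krt8, Krt18 and Cldn4) were lower in labelled shDdr2 without overlap, against 2.11% of all tested genes. The epithelial gene Cldn4 was at 364 ± 112 and 220 ± 21.2 CPM, with a log2 fold change of -0.73 (SE 0.26; -0.43 without control 1). Muscle and fat carry fibroblasts of their own, and the part of such tissue in the Pi16, Dpt and Clec3b values was not tested. The muscle sum was highest in labelled shDdr2 2 (2993 CPM) and lower in labelled shDdr2 3 (403 CPM), where those 3 genes were highest. The summed macrophage markers ranged from 269 to 660 CPM in controls and from 270 to 626 CPM in libraries labelled shDdr2. Erythrocyte markers were high in control 1 alone, at 596 CPM against 25.1 to 62.6 CPM elsewhere.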

How the data were processed

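RNA of 6 whole tumours was enriched for mRNA by poly-T capture, and fragments were sequenced from both ends (150 bp), per the labels' protocols. Per the submitters' processing notes, the tools were Bowtie2 2.1.0, RSEM 1.2.31 and limma, and the build was GRCm38.p5, with no role or order given. The authors deposited whole-number counts for Entrez genes, possibly rounded from estimated counts. They also deposited log2 values, which on checking gave back the count after a scaling by library and an offset of 1, with 17 values that differ. The lowest deposited count is 1, so genes at 0 in some library are not analysed here. No source used here gives the strand setting or annotation.

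Counts were used as deposited. Symbols came from RefSeq by Entrez number (14876 matched, 419 did not), and coordinates and lengths from GENCODE M21 on GRCm38. filterByExpr, TMM scaling and the robust quasi-likelihood test of edgeR 4.0.16 in R 4.3.3 gave p-values, adjusted by Benjamini-Hochberg over 14498 genes with a threshold of 0.05. The median 95% interval reached 0.76 to either side on the log2 scale. Log2 CPM used a prior count of 2. Alternatives were other scalings and filters, DESeq2 1.42.0, limma 3.58.1, the replicate number as a block, and leaving out libraries. Same-numbered libraries deviated together (r of 0.299, 0.267 and 0.253, all above the criterion of 0.1), but control 3 deviated as closely with labelled shDdr2 2 (0.254). The numbers come from the titles, which do not say what they stand for. The reported tests are unpaired, and the block is an alternative. Pairs of libraries within a group were not copies: their chi-square over degrees of freedom ran from 26.1 to 242.

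The members and gene lists were chosen with earlier results of these data known. Genes named are the members, Ddr2, up to 3 per other list by smallest p, and the 5 most like Pdgfra and either mean. The number per list (3 for 5 lists, 1 for 3 others, 0 elsewhere) was set after values were seen. So was the naming of Col1a1, of Smpd3, of Hgf, of the PDGF ligands besides Pdgfa, and of Lyve1 and Flt4. The same holds for the adipocyte and epithelial markers besides Cldn4, and for the genes like Cd34 and Pdpn.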

Additional observations from a re-analysis of the deposited data

How the results depend on the processing

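The count of called fibroblast identity genes was 0 with the reported settings and in every alternative run. Over all genes, 0 were called except by DESeq2, which called 40 (34 higher, 6 lower), among them Des and Tnni2 of the genes named here. Scaling acts alike on both gene means of a library and the replicate block leaves a balanced mean as it is, so neither could do more than barely move the resident minus activated difference and neither tests it. That difference ran from 0.14 to 0.95 when 1 library was left out, with 1.04 when replicate 1 of both groups was left out (chosen after seeing the data). With the replicate block it was 0.53 and 0 genes were called, and of the named genes Pdgfrb alone turned direction. Pdgfrb stood at -0.41 with the replicate block, -0.37 by limma with voom and -0.41 by limma from deposited log2 values, against 0.07. Leaving out 1 library turned the direction of 9 named genes. The ranges were -0.36 to 0.89 (Pdgfra), -1.15 to 0.52 (Pdgfrb), -0.27 to 0.041 (Gsn), -0.61 to 0.23 (Cd34), -0.20 to 0.40 (Pdpn), -0.70 to 0.15 (Thy1), -0.28 to 0.71 (Ddr2), -0.040 to 0.57 (Twist2) and -0.23 to 0.043 (Pik3ca). Without replicate 1 of both groups, Pdpn was at -0.26 and Twist2 at -0.031. Of 434 alternative values of named genes, 411 kept their direction and side of the threshold, 21 turned direction and 2 newly passed the threshold. Without labelled shDdr2 1, 3 of the 10 genes (Pi16, Dpt and Fap) had an unadjusted p under 0.05, beside 6.95% of all genes in that fit, and 0 passed adjusted. Without labelled shDdr2 3, Pdgfrb alone had one, in the lower direction (-1.15), beside 2.70% of all genes. Control 2 for Clec3b, with 5 counts, is where depth limits a value most.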
